A study of Mus musculus with 6 samples.

Results

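The 10 genes described here encode the 4 Rag GTPases (RRAGA, RRAGB, RRAGC and RRAGD), the 5 subunits of Ragulator (LAMTOR1 to LAMTOR5) and the lysosomal transporter SLC38A9. They were taken by symbol from a table of 14915 genes, and all 10 were listed. RNA-seq had been run on cells of the mouse melanoma line B16F10, with 3 libraries labelled ZBTB5-S127A and 3 labelled WT. ZBTB5 is a transcription factor with a BTB domain and zinc fingers, and S127A names the exchange of one of its serines for alanine, which cannot be phosphorylated. Cells of both genotypes had been given TNFα under limited amino acids, and the stated interest was in how the phosphorylation bears on mTORC1 during inflammation. No untreated libraries were analysed here, so every difference is one between libraries that carry these labels, all of treated cells. The sources used here do not say whether the S127A line is a single clone or whether the replicates were separate cultures, so the p-values measure only the spread between these libraries, which may be technical.

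mTORC1 is a kinase complex that drives growth when amino acids are plentiful, and it is switched on at the surface of the lysosome. Rag GTPases work there as heterodimers of RRAGA or RRAGB with RRAGC or RRAGD, and the loaded heterodimer binds RPTOR and so brings mTORC1 to RHEB, its activator. Ragulator holds the Rags on the membrane: LAMTOR1 is the lipid-anchored subunit that wraps around a LAMTOR2-LAMTOR3 pair and a LAMTOR4-LAMTOR5 pair, and SLC38A9 reports lysosomal arginine to the same assembly. In melanocytic cells RRAGD is known as a transcriptional target of MITF and its relatives TFEB and TFE3, which the Rags in turn hold in the cytosol.

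Values are TPM, transcript abundances divided by gene length and library total, so levels can be set side by side between genes. Depth is unknown, since TPM does not keep it. The table summed to 831872 ± 1326 TPM in S127A libraries and 863992 ± 903 TPM in WT libraries (SD, n = 3 each). ZBTB5 itself stood at 8.90 ± 0.569 TPM in S127A and 15.5 ± 0.54 TPM in WT (SD, n = 3 each), which does not show the substitution. The libraries labelled S127A went against the label of the cell line, since they had lost nearly all of its melanocyte markers, so the S127A genotype and the identity of the line cannot be told apart in what follows. Summed TPM of 8 such markers ran from 106 to 115 in S127A libraries and from 18571 to 18716 in WT libraries, and PMEL, the melanosome fibril protein, was at 4.44 ± 0.29 TPM in S127A and 3103 ± 34.5 TPM in WT. SOX10, a transcription factor of the lineage, was at 0.603 ± 0.116 TPM in S127A and 341 ± 4.64 TPM in WT. Of 10 fibroblast markers 10 were listed, with sums of 301 to 313 TPM in S127A and 16.2 to 17.2 TPM in WT, and LUM and THY1 were at 0 in all S127A libraries. COL1A2 made up most of the sum in S127A, whereas POSTN, which was at 0.0667 ± 0.0231 TPM in S127A and 7.79 ± 0.912 TPM in WT, and PDGFRB made up most of it in WT. Of 10 immune markers 8 were listed and summed to 48.97 to 53.3 TPM in S127A and 8.2 to 9.04 TPM in WT, most of it CD14 in S127A, with the leukocyte marker PTPRC at 0.1 TPM or less in all 6 libraries. The 9 listed of 10 endothelial or epithelial markers summed to 63.4 to 64.4 TPM in S127A and 0.23 to 0.47 TPM in WT, nearly all of it KRT18. The part of these marker differences in the results on the Rag and Ragulator genes was not tested, and in bulk RNA fewer cells of a type and less RNA per cell cannot be told apart.

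All 4 Rag GTPase transcripts and 3 of the 5 Ragulator transcripts were lower in S127A, LAMTOR3 and LAMTOR5 were higher, and SLC38A9 did not pass. A gene passed at an adjusted p under 0.05 by limma on log2(TPM + 1), where a log2 change is S127A minus WT. Of the 10348 genes tested 90.0% passed, with 40.2% of all tested genes higher and 49.8% lower in S127A, so a pass by itself sets none of these genes apart. RRAGB and RRAGD came into the test, which asked for a mean of 1 TPM, only through their WT levels, and so had to differ. Of the other 8 genes, which were above it in both groups, 5 were lower, 2 were higher and 1 did not pass. The median log2 change of the 10 genes was -0.89, beside -0.12 for all tested genes. That median includes RRAGB and RRAGD, which had to differ, so it is given as a description only. For 9 of the 10 the S127A values lay wholly outside the WT values, as they did for 90.2% of all tested genes. A fall of at least 2-fold was seen in 4 (RRAGD, RRAGB, LAMTOR1 and LAMTOR2), where 19.9% of all tested genes fell that far. Among the 8 genes above 1 TPM in both groups it was seen in 2, or 25%, which is near that background. RRAGC, at -0.99 on the log2(TPM + 1) scale, lay just short of that line.

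**Figure D1:**
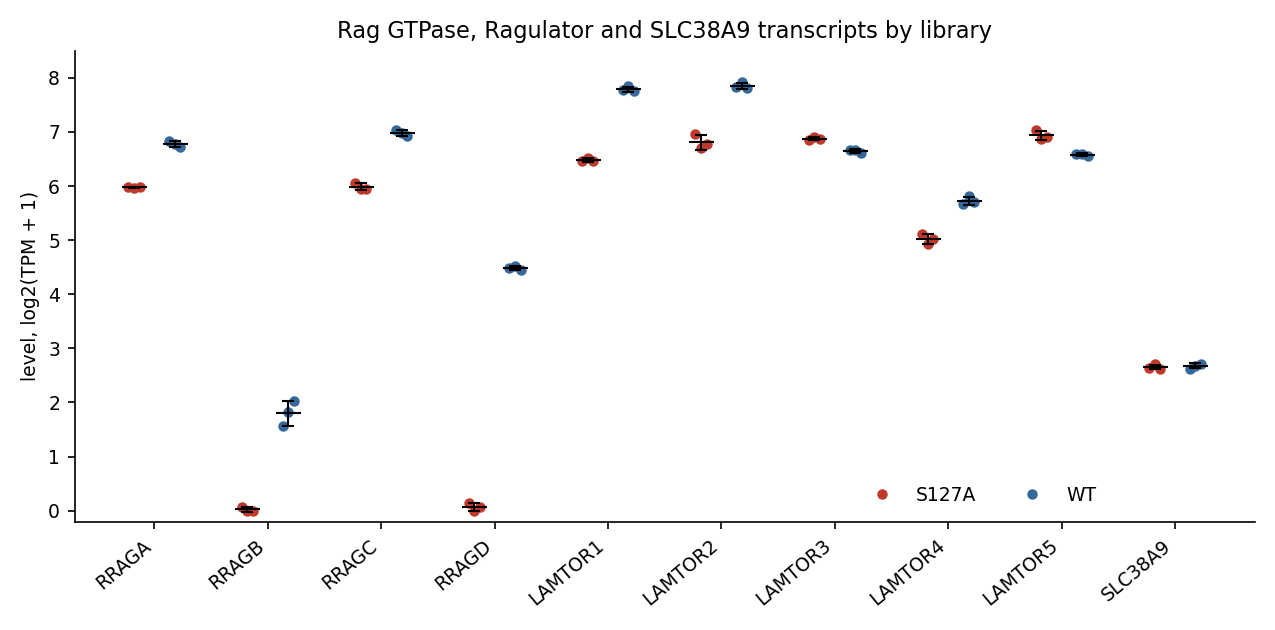
Level of each gene as log2(TPM + 1) in the 3 S127A libraries (red) and the 3 WT libraries (blue), with black bars for the mean and SD. RRAGB and RRAGD lie at or near 0 in every S127A library, LAMTOR3 and LAMTOR5 are the genes with S127A points above WT points, and the points of SLC38A9 overlap.

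RRAGD, which pairs with RRAGA or RRAGB in place of RRAGC, showed the widest gap of the 10 genes. It is annotated at chromosome 4, 32983037 to 33022180, plus strand, with up to 8 exons (GENCODE annotation of mm10, which also gives the other gene positions). It was listed at 0.1, 0 and 0.05 TPM in S127A libraries 1, 2 and 3, and at 21.5, 21.9 and 20.95 TPM in WT libraries 1, 2 and 3. The transcript was thus near the bottom of the scale in all 3 S127A libraries and at a steady middle level in WT. The log2 change was -4.42 (SE 0.0683, adjusted p = 3.78e-13 by limma). A change on this scale depends on the pseudocount for a gene near 0, and it was -7.22 with a pseudocount of 0.1 and -2.39 with 5. Falls at least as large were found in 213 tested genes (2.06%). MITF was at 8.17 ± 0.487 TPM in the S127A libraries and 143 ± 9.67 TPM in WT. The 8 melanocyte markers summed to 106 to 115 TPM in S127A and 18571 to 18716 TPM in WT. Whether MITF or the loss of these markers bears on the level of RRAGD was not tested.

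RRAGC, the partner subunit that both groups expressed, had 65.9, 60.9 and 60.95 TPM in S127A libraries and 130.1, 126 and 120.3 TPM in WT libraries. The groups were far apart compared with their spread, and the S127A mean was 49.9% of the WT mean (log2 change -0.99, SE 0.0429, adjusted p = 1.68e-09). Its gene lies on chromosome 4, 123917446 to 123936997, plus strand, and an exon overlaps the opposite-strand gene 4930535I16Rik, which is uncertain ground where the strand setting of the counting is not given. RRAGD held 0.152, 0 and 0.082% of the summed RRAGC and RRAGD transcripts in S127A libraries, against 14.2, 14.8 and 14.8% in WT libraries. The shares did not overlap, and a two-sided exact permutation test gave p = 0.1, the smallest that 3 against 3 allows. With RRAGD near 0 in S127A this separation restates its fall, so the test adds no support to it. By these shares RRAGC supplied nearly all transcripts of this position of the heterodimer in S127A.

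RRAGA, the main subunit of the other position, had 62.4, 61.4 and 61.8 TPM in S127A libraries and 112, 108 and 104 TPM in WT libraries. Its S127A mean was 57.2% of the WT mean (log2 change -0.80, SE 0.0362, adjusted p = 2.63e-09), with no overlap between the groups. It is a gene of 1 exon at chromosome 4, 86575668 to 86577285, plus strand. RRAGB, its close paralogue on chromosome X (153139981 to 153171943, plus strand), was listed at 0.05, 0 and 0 TPM in S127A libraries and at 1.96, 2.53 and 3.07 TPM in WT libraries. RRAGB was thus the lowest of the 10 genes in WT, and in S127A it lay at the bottom with RRAGD, whose values it overlapped. Its log2 change was -1.78 (SE 0.112, adjusted p = 4.45e-08), and -4.49 or -0.58 with a pseudocount of 0.1 or 5. Coding sequences of RRAGA and RRAGB are alike, so reads may have been shared between them, and the levels of RRAGB are uncertain for that reason. RRAGB made up 0.0801, 0 and 0% of the summed RRAGA and RRAGB transcripts in S127A libraries and 1.72, 2.29 and 2.86% in WT libraries (two-sided exact permutation p = 0.1). This separation restates the fall of RRAGB, and the test adds no support to it.

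Summed transcripts of the 2 positions of the heterodimer were closer to balance in S127A. Summed RRAGA and RRAGB transcripts over summed RRAGC and RRAGD transcripts came to 0.946, 1.01 and 1.01 in S127A libraries and 0.754, 0.7495 and 0.759 in WT libraries. The ratio was higher in each S127A library than in any WT library (mean 0.989 ± 0.0372 in S127A against 0.754 ± 0.00466 in WT, SD, n = 3 each, two-sided exact permutation p = 0.1). It includes RRAGD, which was near 0 in S127A. Without RRAGB and RRAGD, the inverse ratio, RRAGC over RRAGA, was 1.01 ± 0.0387 in S127A and 1.16 ± 0.00366 in WT, and was not tested. Summed over the 4 Rags, S127A libraries held 128, 122 and 123 TPM and WT libraries 266, 258 and 248 TPM, so that the S127A sum was 48.3% of the WT sum (two-sided exact permutation p = 0.1). RRAGC and RRAGD together fell to 62.6 ± 2.88 TPM in S127A, against 147 ± 5.21 TPM in WT, and RRAGA and RRAGB together to 61.9 ± 0.517 TPM in S127A, against 111 ± 3.54 TPM in WT. For each of these sums every S127A library lay below every WT library.

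**Figure D2:**
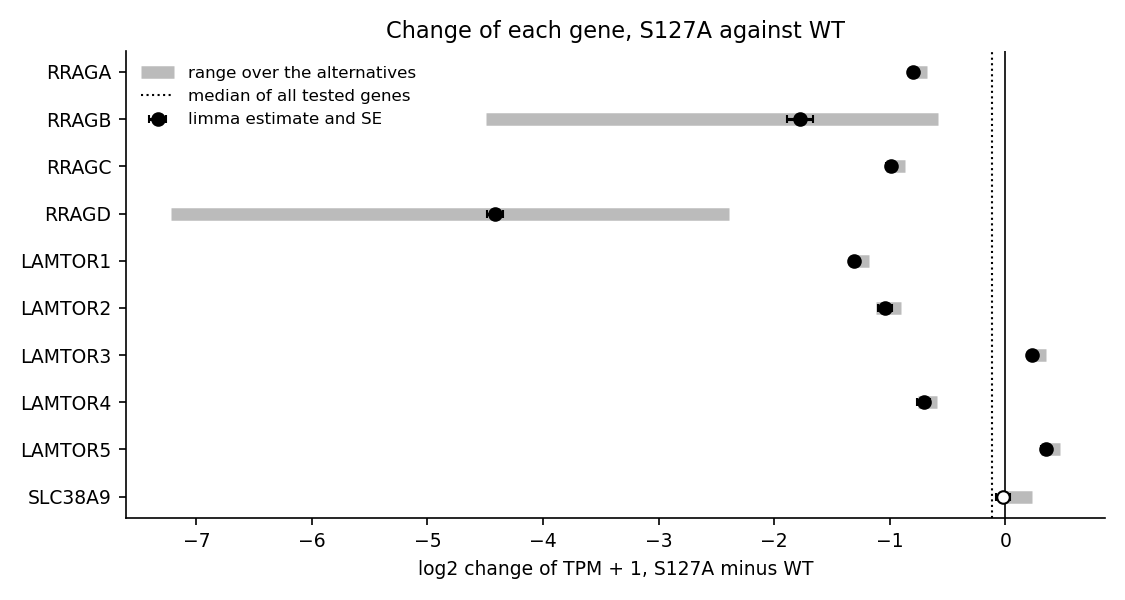
Log2 change of TPM + 1, S127A minus WT, for each gene, with black points for the limma estimate, thin bars for its SE, grey bars for the range over the alternative settings and a dotted line at the median of all tested genes (-0.12). Filled points passed and the open point (SLC38A9) did not. Grey bars are wide for RRAGB and RRAGD, whose change depends on the pseudocount, and the bar of SLC38A9 crosses 0.

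Promoter windows of these genes are shown because MiT/TFE factors (MITF, TFEB, TFE3 and TFEC), which bind the E-box CACGTG and the M-box core CATGTG, are known to act on genes of this pathway. All 3 of these factors that were tested were lower in S127A, where 49.8% of all tested genes were. MITF fell together with the melanocyte markers, and the part of these factors in the changes described here was not tested. RefSeq windows (GRCm38.p6, 250 bases before to 50 bases after the annotated start, 300 bases) matched 9 of the 10 genes by symbol, without LAMTOR3. Printed are the window of RRAGD, the gene with the largest change, and those that hold CACGTG. The windows of RRAGA, LAMTOR2, LAMTOR5 and SLC38A9 were searched and are not printed. Capitals mark CACGTG, or CATGTG on either strand, and the sequences run 5′ to 3′ along the gene:
RRAGD (chr4:32982748-32983047, plus strand): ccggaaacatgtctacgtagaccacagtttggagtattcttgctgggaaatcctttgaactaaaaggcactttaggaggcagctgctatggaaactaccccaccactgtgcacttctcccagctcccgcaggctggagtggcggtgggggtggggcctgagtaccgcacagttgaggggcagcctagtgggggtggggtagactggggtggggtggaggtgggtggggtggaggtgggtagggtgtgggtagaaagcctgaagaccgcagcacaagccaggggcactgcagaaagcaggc
RRAGC (chr4:123917183-123917482, plus strand): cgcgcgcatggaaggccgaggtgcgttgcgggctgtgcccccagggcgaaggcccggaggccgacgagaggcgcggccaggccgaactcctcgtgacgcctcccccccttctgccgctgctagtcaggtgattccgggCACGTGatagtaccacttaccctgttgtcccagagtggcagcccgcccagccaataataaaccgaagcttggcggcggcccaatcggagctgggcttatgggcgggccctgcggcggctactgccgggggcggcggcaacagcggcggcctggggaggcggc
RRAGB (chrX:153139708-153140007, plus strand): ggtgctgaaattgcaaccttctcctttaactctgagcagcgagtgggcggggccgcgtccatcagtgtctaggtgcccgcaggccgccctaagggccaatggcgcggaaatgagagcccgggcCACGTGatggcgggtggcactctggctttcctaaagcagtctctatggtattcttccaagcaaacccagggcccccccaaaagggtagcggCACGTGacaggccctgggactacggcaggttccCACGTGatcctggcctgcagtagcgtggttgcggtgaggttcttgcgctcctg
LAMTOR1 (chr7:101905587-101905886, plus strand): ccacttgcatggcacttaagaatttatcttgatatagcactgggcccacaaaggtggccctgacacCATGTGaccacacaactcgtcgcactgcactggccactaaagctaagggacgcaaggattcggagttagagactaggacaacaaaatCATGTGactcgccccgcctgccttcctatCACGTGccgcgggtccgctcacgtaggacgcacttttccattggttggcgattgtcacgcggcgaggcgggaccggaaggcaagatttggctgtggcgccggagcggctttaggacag
LAMTOR4 (chr5:138255232-138255531, plus strand): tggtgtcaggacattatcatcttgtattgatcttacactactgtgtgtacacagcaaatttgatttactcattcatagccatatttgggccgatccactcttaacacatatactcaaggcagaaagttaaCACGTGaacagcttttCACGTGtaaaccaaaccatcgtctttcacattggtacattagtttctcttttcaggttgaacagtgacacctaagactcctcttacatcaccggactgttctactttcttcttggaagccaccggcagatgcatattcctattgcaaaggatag

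CACGTG was found in 4 of the 9 windows, those of RRAGB, RRAGC, LAMTOR1 and LAMTOR4. It occurs in 7.15% of all 32851 windows of that length. RRAGB held 3 such matches, of which 1 ended 122 bases before the start site and the others began 36 and 3 bases before it. RRAGC held 1, beginning 112 bases before its start, LAMTOR1 held 1 at 68 bases and LAMTOR4 held 2 at 120 and 104 bases. Each of these matches was flanked by the T or A of the longer form TCACGTG or CACGTGA, which 3.77% of all windows hold. The full CLEAR element, a longer palindrome around the E-box found in 0.326% of all windows, was in none of the 9 windows. CATGTG, read on both strands and found in 14.2% of all windows, was in those of LAMTOR1 and LAMTOR2, with 2 matches each. RRAGD, RRAGA, LAMTOR5 and SLC38A9 held neither, which says only that these letters are not in these windows. All 4 genes with CACGTG were lower in S127A, where 49.8% of all tested genes were. RRAGB came into the test only through its WT level and so had to differ, which leaves RRAGC, LAMTOR1 and LAMTOR4. Of the genes whose windows lack it, RRAGA, RRAGD and LAMTOR2 were lower, LAMTOR5 was higher and SLC38A9 did not pass. RRAGD had to differ for the same reason as RRAGB. Whether the motif bears on these changes was not tested. A match is a stretch of letters and no measure of binding.

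**Figure D3:**
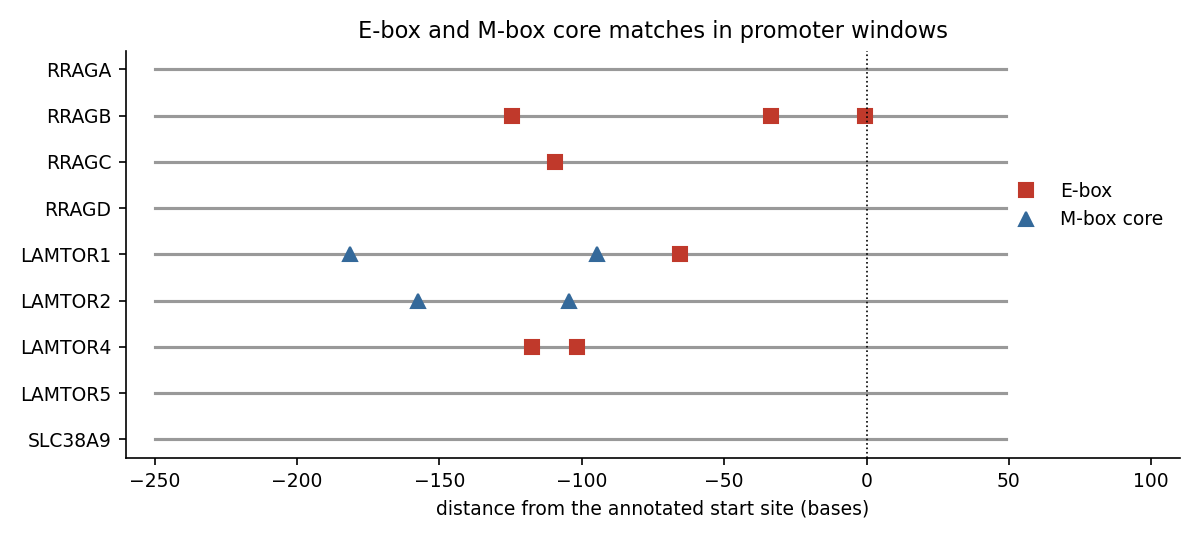
Matches to the E-box (red squares) and to the M-box core (blue triangles) by distance in bases from the annotated start site, in the promoter windows of the 9 genes that have one. RRAGB, RRAGC, LAMTOR1 and LAMTOR4 hold E-boxes, LAMTOR1 and LAMTOR2 hold M-box cores, and the other 4 windows are empty.

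Ragulator subunits split between the directions. LAMTOR1, the subunit that anchors the complex to the lysosome, had 87.2, 91.1 and 87.4 TPM in S127A libraries and 217, 229 and 216 TPM in WT libraries. Its S127A mean was 40.1% of the WT mean, the largest fall among the Ragulator genes (log2 change -1.31, SE 0.0346, adjusted p = 2.62e-11). The gene is at chromosome 7, 101905904 to 101926675, plus strand, and an exon overlaps the opposite-strand gene Lrrc51. The human-style symbol that covers that neighbour, LRTOMT, was listed at 0 TPM in all S127A libraries and at 0.44 to 0.64 TPM in WT.

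LAMTOR2 and LAMTOR3 form one of the pairs that LAMTOR1 wraps, and they moved in opposite directions. LAMTOR2 (chromosome 3, 88549819 to 88553074, minus strand) had 124, 103 and 108 TPM in S127A libraries and 228, 241 and 223 TPM in WT libraries. No S127A value reached the WT range (log2 change -1.04, SE 0.0603, adjusted p = 2.06e-08). LAMTOR3 (chromosome 3, 137918506 to 137928900, plus strand), also known as the MEK partner MP1, had 114, 119 and 116 TPM in S127A libraries and 100.3, 100.2 and 96.1 TPM in WT libraries. All 3 S127A values were above all 3 WT values, and the rise was small (log2 change 0.23, SE 0.033, adjusted p = 4.67e-05). A copy named Lamtor3-ps is annotated by RefSeq, so reads of LAMTOR3 may have been shared with it.

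LAMTOR4 and LAMTOR5, the other pair, showed the same division. LAMTOR4 (chromosome 5, 138255482 to 138259398, plus strand) had 33.7, 29.3 and 31.4 TPM in S127A libraries and 49.6, 55.1 and 51.2 TPM in WT libraries, with no overlap (log2 change -0.71, SE 0.0573, adjusted p = 4.03e-07). LAMTOR5 (chromosome 3, 107278858 to 107284082, plus strand), first described as the hepatitis B X-interacting protein, had 130.0, 116 and 119 TPM in S127A libraries and 96.1, 95.5 and 92.95 TPM in WT libraries. Its S127A mean was 128% of the WT mean (log2 change 0.35, SE 0.0433, adjusted p = 1.39e-05). The rises of LAMTOR3 and LAMTOR5 ran from 0.21 to 0.35 and from 0.31 to 0.48 over 16 alternatives each, and both passed in all of them. Rises at least as large as that of LAMTOR5 were found in 31.5% of all tested genes, and for LAMTOR3 in 36.2%.

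Ratios within a library do not depend on a scaling factor for that library, and those within the pairs, chosen after the values were seen and so given without a test, differed widely. LAMTOR3 over LAMTOR2 was 0.922, 1.15 and 1.07 in S127A libraries and 0.441, 0.416 and 0.4305 in WT libraries. LAMTOR5 over LAMTOR4 was 3.86, 3.96 and 3.79 in S127A libraries and 1.94, 1.73 and 1.82 in WT libraries. In each pair the balance was thus shifted towards the subunit that was higher in S127A. The summed Ragulator transcripts came to 489, 458 and 462 TPM in S127A libraries and 691, 721 and 679.9 TPM in WT libraries, 67.4% of the WT sum (two-sided exact permutation p = 0.1). Of that sum LAMTOR1 made up 18.9 ± 1.02% in S127A and 31.7 ± 0.229% in WT, and LAMTOR5 25.9 ± 0.649% in S127A and 13.6 ± 0.34% in WT (SD, n = 3 each). There were 3.77 ± 0.0324 Ragulator transcripts per Rag transcript in S127A and 2.71 ± 0.1 in WT, both sums in TPM. In the same libraries the listed epithelial and endothelial markers summed to 63.4 to 64.4 TPM in S127A and 0.23 to 0.47 TPM in WT, with KRT18 at 62.8 ± 0.362 TPM in S127A and 0.09, 0 and 0.18 TPM in WT.

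**Figure D4:**
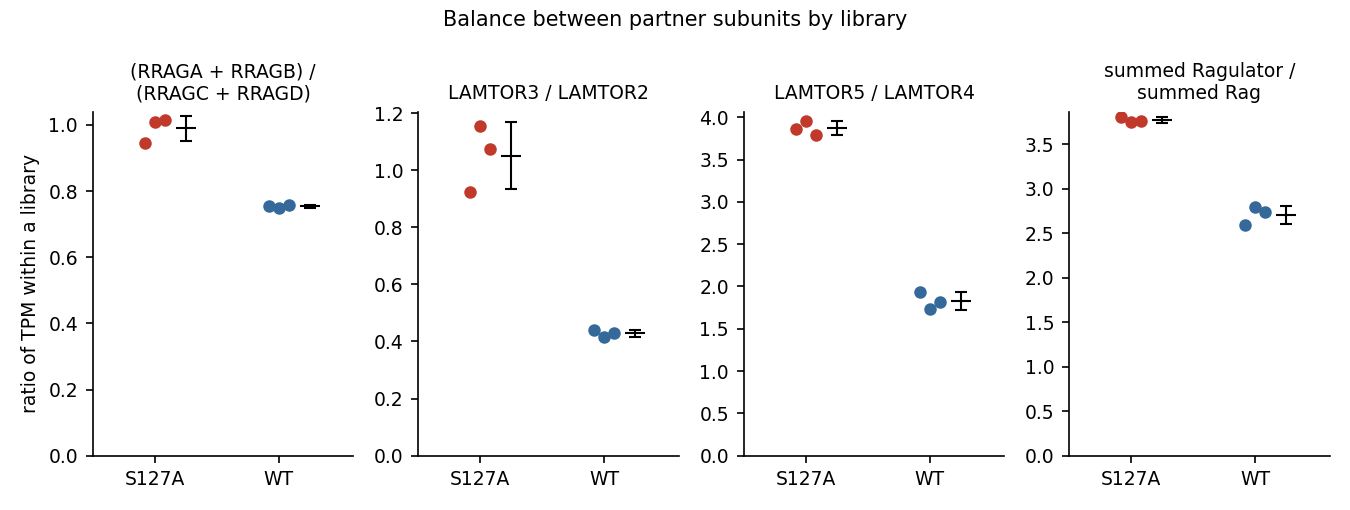
Ratios of TPM within each library, with points for the 3 S127A (red) and the 3 WT (blue) libraries and black bars for the mean and SD. From left to right the panels show RRAGA plus RRAGB over RRAGC plus RRAGD, LAMTOR3 over LAMTOR2, LAMTOR5 over LAMTOR4, and summed Ragulator over summed Rag transcripts. In every panel all S127A points lie above all WT points.

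SLC38A9, an amino acid transporter of the lysosomal membrane that senses arginine and binds the Rags and Ragulator, stood at a low level in both groups and did not pass. It had 5.23, 5.53 and 5.17 TPM in S127A libraries and 5.18, 5.42 and 5.58 TPM in WT libraries, and the values overlapped. The log2 difference was -0.02 (SE 0.0637, adjusted p = 0.784). Its sign depended on scaling: it was 0.08 with TMM factors (adjusted p = 0.232), 0.03 with a common total (adjusted p = 0.692) and 0.23 with quantile normalization, where it passed (adjusted p = 0.00607). The gene is at chromosome 13, 112660751 to 112738749, plus strand, with an exon that overlaps the antisense gene Gm47827.

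The order of the levels differed between the groups. In S127A LAMTOR5, LAMTOR3 and LAMTOR2 stood highest, and each overlapped its neighbour in that order. LAMTOR1 came next, then RRAGC and RRAGA, whose values overlapped each other, then LAMTOR4 and SLC38A9, and RRAGD and RRAGB last. In WT LAMTOR2 and LAMTOR1 stood highest and overlapped each other. They were followed by RRAGC, RRAGA, LAMTOR3, LAMTOR5, LAMTOR4, RRAGD, SLC38A9 and RRAGB, none of which overlapped the next. LAMTOR5 thus ranked 1 in S127A and 6 in WT, whereas LAMTOR1 ranked 4 in S127A and 2 in WT.

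Among all tested genes, the 5 whose log2(TPM + 1) values over the 6 libraries lay nearest to those of RRAGD were RNF157, C11orf95, EXTL1, ST6GAL1 and GNAO1, at Euclidean distances of 0.108 to 0.166. RNF157, a RING finger protein, had 0.1, 0.03 and 0.1 TPM in S127A libraries and 22.5, 21.5 and 21.4 TPM in WT libraries. ST6GAL1, a sialyltransferase, had 0.09, 0.03 and 0.06 TPM in S127A and 22.6, 20.1 and 22.1 TPM in WT. With 2 groups such nearness reflects a like level in each group and is given as a description.

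The partners of these genes were read from 11 lists of 83 symbols, of which 74 were listed and 67 tested. Of the 67, 44 were lower, 17 were higher and 6 did not pass, with a median log2 change of -0.53 beside -0.12 for all tested genes. The share that passed in either direction, 91.0%, was near the 90.0% of all tested genes, with 65.7% lower beside 49.8% and 25.4% higher beside 40.2%. Counts for the single lists are to be read against the same background, and most lists are short. The folliculin complex, which acts on RRAGC and RRAGD as their GTPase-activating protein, was lower for 3 of 3. FLCN itself was at 18.6 ± 0.622 TPM in S127A and 62.5 ± 1.71 TPM in WT (log2 change -1.70, SE 0.0435, adjusted p = 1.98e-11). GATOR1 and KICSTOR, which restrain RRAGA and RRAGB, were lower for 4 of 7 and higher for 1, the KICSTOR subunit listed as C12orf66, with a median log2 change of -0.29. The number higher was 3 with TMM factors, quantile normalization or a common total. GATOR2, which opposes GATOR1, was higher for 2 of 5 (WDR24 and SEH1L) and lower for 1 (SEC13). SH3BP4, a negative regulator of the Rags, was at 16.2 ± 1.12 TPM in S127A and 7.44 ± 0.223 TPM in WT (log2 change 1.02, SE 0.0637, adjusted p = 3.91e-08), and the ubiquitin ligase genes RNF167 and SKP2 of the same list were lower (log2 changes -0.48 and -0.25).

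Most tested transcripts of the proton pump to which Ragulator binds were lower, where 49.8% of all tested genes were. In the V1 sector 8 of 9 tested genes were lower and 1 was higher (ATP6V1G2), with a median log2 change of -1.59, and among the V0 sector and accessory genes 9 of 10 were lower and 1 was higher (TCIRG1), with a median of -1.35. ATP6V0C, the proteolipid subunit, was at 389 ± 13.6 TPM in S127A and 1966 ± 36.3 TPM in WT (log2 change -2.33, adjusted p = 1.61e-13). BORC is a complex that Ragulator holds back to keep lysosomes near the nucleus, and only 4 of its 8 symbols were listed. These ran the other way, with 4 of 4 tested genes higher, where 40.2% of all tested genes were, and a median log2 change of 0.23. KXD1 was at 79.2 ± 2.47 TPM in S127A and 45.3 ± 2.3 TPM in WT (adjusted p = 1.69e-08 by limma). The rise of SNAPIN was small (log2 change 0.12, adjusted p = 0.0288 by limma). The count of 4 became 2 without S127A replicate 2 and 2 without WT replicate 3. mTORC1 and RHEB genes were lower for 7 of 10 and higher for 2 (RHEB and RHEBL1). RHEB, the activator at the lysosome, was at 153 ± 4.78 TPM in S127A and 129 ± 4.14 TPM in WT (log2 change 0.24, adjusted p = 7.37e-05 by limma). The 7 lower genes were the subunits RPTOR and MLST8 and the inhibitors DEPTOR, AKT1S1, TSC1, TSC2 and TBC1D7. MTOR did not pass. DEPTOR was at 1.57 ± 0.111 TPM in S127A and 29.8 ± 2.06 TPM in WT. This count thus mixes parts and inhibitors of mTORC1, and it is no measure of mTORC1 activity. Of the cytosolic sensors 2 of 4 were lower and 2 higher, and SESN3, a sestrin, was listed at 0, 0.06 and 0 TPM in S127A libraries and at 24.0, 24.0 and 25.2 TPM in WT libraries. Lysosomal transporters and sterol sensors were lower for 5 of 9 and higher for 3, with LAPTM4B at 54.8 ± 1.18 TPM in S127A and 185 ± 4.79 TPM in WT. Of the MiT/TFE factors 3 of 3 were lower, with TFEB at 5.81 ± 0.926 TPM in S127A and 12.2 ± 1.19 TPM in WT and TFE3 at 42.6 ± 1.6 TPM in S127A and 59.4 ± 0.518 TPM in WT. Beside these lists, the fibroblast markers summed to 301 to 313 TPM in S127A and 16.2 to 17.2 TPM in WT, with COL1A2 at 275 ± 6.56 TPM in S127A and 1.41 ± 0.164 TPM in WT and POSTN, in the other direction, at 0.0667 ± 0.0231 TPM in S127A and 7.79 ± 0.912 TPM in WT.

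**Figure D5:**
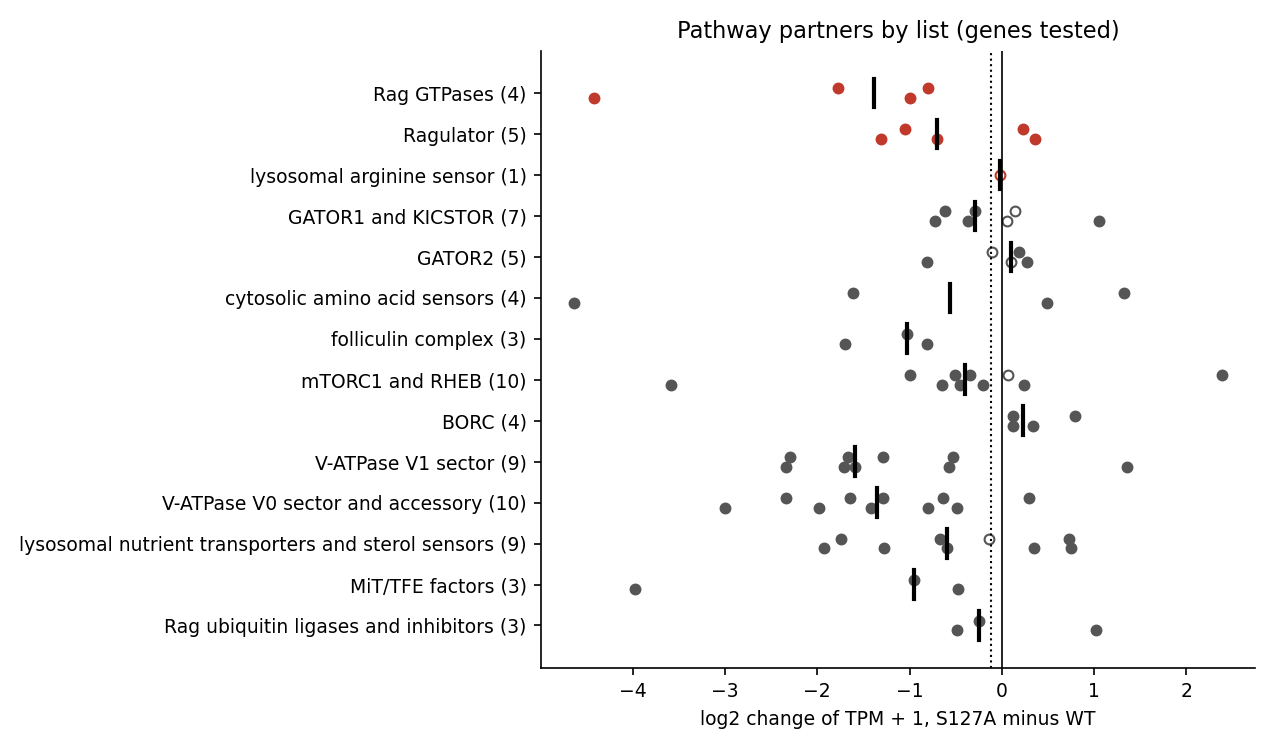
Log2 change of TPM + 1, S127A minus WT, of each tested gene in the Rag, Ragulator and SLC38A9 groups (red) and in 11 lists of their partners (grey), with the number tested in brackets. Filled points passed and open points did not, black ticks are list medians and the dotted line is the median of all tested genes (-0.12). The 4 Rag genes lie left of 0, and the V-ATPase lists have medians of -1.59 and -1.35, to the left of the dotted line.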

How the data were processed

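RNA-seq had been made from 6 libraries of TNFα-treated B16F10 cells under limited amino acids, 3 S127A and 3 WT, grouped by sample title. Values are TPM, as the authors deposited them in 1 table, per the file headers, with mm10 as the genome build per the submitters' processing notes. Not given in the sources used here were the aligner, quantifier, annotation and use of strand. Symbols in the table are written in human style.

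Genes with a mean of at least 1 TPM over the 6 libraries (10348 of 14915) were fitted on log2(TPM + 1) with limma 3.58.1 in R 4.3.3 (mean-variance trend, genotype as the only term, two-sided), and p-values were adjusted by Benjamini-Hochberg over all of them at 0.05. The sums, shares and ratios printed with a p-value were compared by exact permutation of the 6 libraries, and the others were not tested. The fit was tested on simulated data. Motifs were searched as letters in RefSeq promoter windows (GRCm38.p6); protein sequences were not used here. Python 3.11.15, pandas 2.3.3 and matplotlib 3.10.9 made the figures.

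The 10 genes, the lists and the tests were chosen with earlier results of these data known. The text names all 10, 4 check genes (ZBTB5, MITF, PMEL and COL1A2), the 5 profiles nearest to the gene with the largest change and up to 3 members per list with the smallest adjusted p. Others were named after their values were seen: ATP6V1G2, TCIRG1, RHEB, RPTOR, MLST8, MTOR, TSC1, TSC2, TBC1D7, SOX10, POSTN, PDGFRB, LUM, THY1, PTPRC, CD14, KRT18 and LRTOMT. The list around BORC is given for the BORC subunits alone, and its other genes are not reported here. The fit was repeated with a pseudocount of 0.1 and of 5, with the filter dropped or raised to a mean of 5 TPM, with TMM factors computed on TPM (trims of 30% and 5%), quantile normalization or a common total, without the trend, with robust hyperparameters, with the replicate number as a block, and without each library in turn.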

Additional observations from a re-analysis of the deposited data

How the results depend on the processing

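The numbers of genes lower and higher in S127A, 7 and 2 of the 10, were 6 to 7 and 2 to 3 over 16 alternatives. The gene that left the lower count was RRAGB, which was not tested with a mean of at least 5 TPM or without WT replicate 3, and the third higher gene was SLC38A9 with quantile normalization. Over 158 recomputed changes of single genes 4 changed sign, all of SLC38A9: 0.0841 with TMM factors, 0.234 with quantile normalization, 0.0271 with a common total, and 0.0021 without WT replicate 3, in a range of -0.0438 to 0.0021 when each library was left out. The other 9 genes kept direction and call in every alternative in which they were tested. The difference of the Rag sums, S127A minus WT, ranged from -138 to -117 TPM and that of the Ragulator sums from -237 to -175 TPM over 9 alternatives each. TMM factors raised the median log2 difference of all genes by 0.118, quantile normalization by 0.0983 and a common total by 0.0526. Of 352 recomputed list counts 8 moved by more than 1.5 times: genes higher in BORC, 4, were 2 with no filter, with no trend, without S127A replicate 2 and without WT replicate 3, those in GATOR1 and KICSTOR, 1, were 3 under the 3 scalings, and that in the V1 sector was 0 with a mean of at least 5 TPM. A replicate block gave 7 lower and 2 higher; deviations of same-numbered libraries correlated at 0.117, 0.0174 and 0.0279, so the numbers were not taken to pair them, and not every library correlated best with its own number. Unknown depth means that no counting error can be given for RRAGB and RRAGD near 0.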
